A study of Arabidopsis thaliana with 8 samples.

Results

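PIF3-binding sites whose summit lies inside an annotated Arabidopsis gene are described here. Summits of 4 peak lists, 1 for each biological replicate, were joined where they lay less than 100 bp apart, and groups with summits from at least 2 lists made a reproducible site centred on the mean summit. Of the 1064 reproducible sites, 303 (28.5%, exact 95% interval 25.8 to 31.3) had this mean summit between the start and the end of a nuclear gene or pseudogene of TAIR10.1, and 761 lay outside every annotated gene. The paper, which aligned reads to TAIR9, reported a larger intergenic share of its 1064 sites than the 71.5% outside genes here. The cause of this difference was not tested. The 303 sites fell into 302 host genes, since AT2G01300 hosts a pair of them, and 20 of the mean summits lay in more than 1 annotated gene.

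The peaks came from chromatin immunoprecipitation followed by sequencing (ChIP-seq) of 8 libraries, 4 of each genotype. P3M seedlings express PIF3 joined to Myc epitopes under the 35S promoter in the pif3-3 null background, and wild-type (WT) seedlings without the epitope were the control for the Myc antibody. All were whole 2-d-old seedlings grown in darkness after white light for 3 h at 21°C and far-red light for 15 min, so that each value averages over all cell types and comes from a constitutive promoter in place of the PIF3 promoter. Each P3M library was set against its own WT library when peaks were called, and a peak therefore has a P3M tag count and a fold over the local background, while WT has no values of its own here. The lists hold 696, 2517, 526 and 3089 peaks for replicates 1 to 4, the median peak held between 87 and 189 tags, and library depths are not known here.

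PIF3 is a basic helix-loop-helix (bHLH) transcription factor that accumulates in dark-grown seedlings and is degraded after light activates the phytochrome photoreceptors. It binds DNA at the G-box, CACGTG, and at a variant called the PBE-box, CACATG. A transcription factor is most often looked for upstream of a gene's transcription start, and a summit inside a gene may lie in the 5′ untranslated region (5′ UTR), the coding sequence, an intron, the 3′ UTR or a gene that makes no protein.

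The motif nearest to the summit is printed here for sites of each class that the results turn on, with 10 bases on either side, read 5′ to 3′ on the strand of the host gene. Capitals mark the motif, a G-box or a PBE-box in either orientation, and the sequences are those of RefSeq on TAIR10.1.
AT4G17420 5′ UTR, chr4:9724674-9724699, minus strand: aaacagattcCACGTGcagcttcagg
AT4G30410 5′ UTR, chr4:14872251-14872276, minus strand: catgtgcatgCATGTGcttctcctat
WNK3 5′ UTR, chr3:17875489-17875514, minus strand: acacctttgcCACGTGgtcttgtcca
EIN3 5′ UTR, chr3:7263287-7263312, minus strand: gctttctagcCACGTGatctttcgtc
IAA7 5′ UTR, chr3:8194621-8194646, plus strand: aaaagacatgCACATGcaattacacg
IAA2 coding-sequence site, chr3:8181934-8181959, minus strand: gagtcgtgtcCACATGggcggcctca
RHA2B coding sequence, chr2:100559-100584, plus strand: ggtcccacaaCACGTGgcctgtgtca
BEE1 coding sequence, chr1:6333490-6333515, plus strand: agagcaaaggCACGTGagacagtgga
BEE3 coding sequence, chr1:27761263-27761288, plus strand: aaggcaaaggCACGTGaggcagtgga
AT1G20790 coding sequence, chr1:7221152-7221177, minus strand: tatgcccatgCACATGcacatgcaca
AT5G14690 intron, chr5:4735387-4735412, minus strand: cccggcaatcCACGTGaaagagaatc
AT3G44610 intron, chr3:16190553-16190578, minus strand: atcttacttaCATGTGtgggcatatc
AT3G06590 3′ UTR, chr3:2053560-2053585, minus strand: tatgaggaggCACATGggagtggcca
IAA14 3′ UTR, chr4:8347864-8347889, minus strand: ggaacaagagCATGTGcatattcatg
AT5G01475 non-coding gene, chr5:2614633-2614658, minus strand: aatgggcaccCACGTGaccatccttc
AT1G09965 non-coding gene, chr1:29361085-29361110, minus strand: gtaaaggatgCATGTGggaagcacgt
AT5G06985 non-coding gene, chr5:19219451-19219476, plus strand: ctggctgtccCACGTGttcactctga
AT3G09365 non-coding gene, chr3:22326218-22326243, plus strand: gacgtggcaaCACGTGgttcccagtg
The G-box reads the same on both strands, whereas the PBE-box has an orientation, and among the members whose nearest motif was a PBE-box 38 read CACATG and 36 read CATGTG on the host strand.

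Most of the members lay in a 5′ UTR. This class held 163 sites (53.8%), followed by 54 sites in non-coding genes or transcripts, 41 in coding sequence, 27 in 3′ UTRs and 18 in introns. A position that different transcripts of a gene place in different parts was given to coding sequence first, then to the 5′ UTR, the 3′ UTR and the intron. Of the members, 189 were in 2 lists, 77 in 3 and 37 in all 4, and replicates 2 and 4 alone gave 102 of the 189. Without replicate 4 there were 138 members of 511 sites, and without replicate 2 there were 179 of 659. A site in at least 3 lists made up 37.6% of the members (exact 95% interval 32.1 to 43.3), against 41.9% of all 1064 sites and 43.6% of the sites outside genes (40.1 to 47.2). Sites in all 4 lists were 12.2% of the members (8.75 to 16.4), against 16.4% of all sites. By class, 15 of the 163 5′ UTR sites, 8 of the 41 coding-sequence sites, 3 of the 18 intron sites, 2 of the 27 3′ UTR sites and 9 of the 54 non-coding sites were in all 4 lists.

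**Figure D1:**
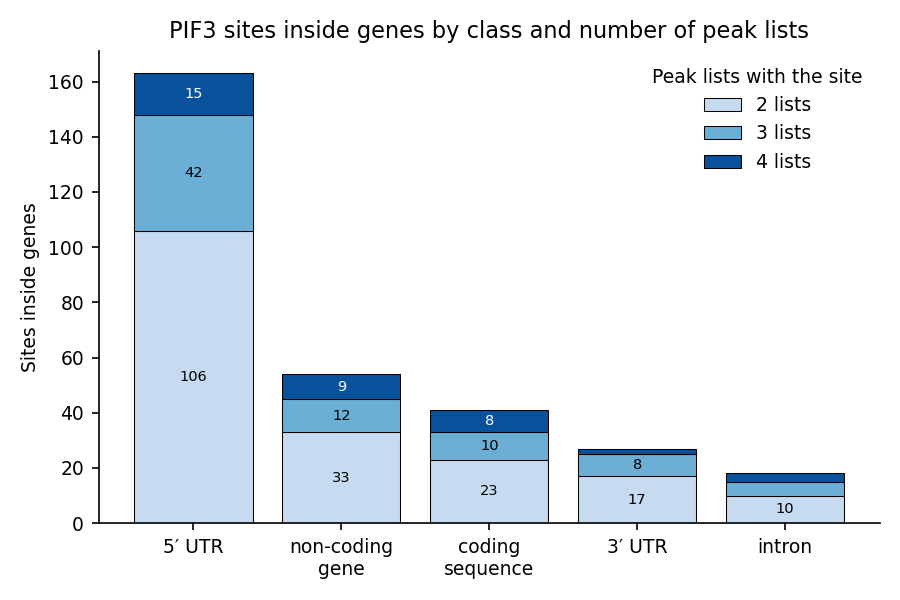
Number of PIF3 sites inside genes (y axis) in each class (x axis), split by how many of the 4 peak lists hold the site. The 5′ UTR bar of 163 sites is the tallest, and 106 of its sites are in 2 lists.

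The border of the rule is crossed by few base pairs for some sites. The mean summit of 34 members lay within 25 bp of the start or the end of their host, and that of 16 outside sites within 25 bp of a gene, with 61 and 40 such sites within 50 bp. When the window of 100 bp to either side of the mean summit had to lie wholly inside the gene, 189 members remained.

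Enrichment was lower at sites inside genes in each of the 4 lists. The median fold of members was 5.01, 4.73, 4.33 and 5.57 in replicates 1 to 4, against 5.48, 5.12, 4.72 and 6.43 outside genes, a mean difference of -0.53 ± 0.22 (SD, n = 4). The 2 sets of peaks come from the same libraries, so that each list was compared with itself, and the two-sided exact sign-flip permutation test gave p = 0.125. That is the smallest p that 4 lists can give, so no difference of this kind can pass 0.05 here, and adjusted over the 16 comparisons made in this way it was 0.154. For the 5′ UTR class alone the medians were 4.89, 4.68, 4.22 and 5.26 (mean difference -0.67 ± 0.33, SD, n = 4, lower in 4 of 4 lists, same exact permutation p). Peaks of the other genic classes had medians of 5.22, 4.80, 4.44 and 5.80, which is -0.37 ± 0.17 from outside (SD, n = 4), again lower in 4 of 4 lists. With at least 3 lists required this last difference was -0.0025 (exact permutation p = 1), and without replicate 2 it was -0.23 (p = 0.5). The rank of the peak score within its list, where 0% is the lowest p-value of the list, had a median of 50.4%, 30.8%, 51.8% and 30.9% in the 5′ UTR class and 36.4%, 25.8%, 43.1% and 19.4% outside, a mean difference of 9.79 percentage points ± 3.85 (SD, n = 4, exact permutation p = 0.125), higher in 4 of 4 lists. For the other genic classes this rank was higher in 2 lists and lower in 2, with a mean difference of 0.58 ± 5.61 (SD, n = 4, exact permutation p = 0.875). A false discovery rate under 5% was given to 55 of the 757 peaks of members, 20 in replicate 2 and 35 in replicate 4, which is 7.27%, against 10.5% of the 2749 peaks of all sites. Replicates 1 and 3 had none inside genes, and 10 and 1 outside.

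At least 1 of the motifs was present at most members, though at a lower share than outside genes. The background share of the motifs was lower inside genes too, as given with the classes below. A motif was counted if its nearest base lay less than 100 bp from the mean summit. A G-box was present at 136 of the 303 members (44.9%, exact 95% interval 39.2 to 50.7), against 50.1% of all sites and 52.2% outside genes (48.6 to 55.8). A PBE-box was present at 92 (30.4%, 25.2 to 35.9), against 35.6% of all sites and 37.7% outside (34.3 to 41.3). Either motif was present at 194 (64.0%, 58.3 to 69.4), against 72.6% of all sites and 76.0% outside (72.8 to 78.9), and 34 members held both. Counted by list, the share with a G-box was lower inside genes in 4 of 4 lists (mean difference -7.72 percentage points ± 1.37, SD, n = 4), as was the share with a PBE-box (-5.34 ± 3.17), with an exact permutation p of 0.125 for each. The PBE-box difference turned to 2.03 (exact permutation p = 0.625) when peaks had to have a p of 1e-10 or lower. The share of peaks with either motif was lower inside genes in 4 of 4 lists, with a mean difference of -9.87 percentage points ± 3.77 (SD, n = 4, exact permutation p = 0.125, adjusted 0.154), and -4.99 with at least 3 lists required. By the rule each site is in at least 2 lists, so that these 4 differences are not independent of each other. The motif lay close to the summit, with a median of 14 bp from the summit to the centre of the nearest motif and 134 of the 194 within 25 bp. This was much as at all sites, with a median of 14.5 bp and 554 of 772 within 25 bp, and outside genes, with 420 of 578. In windows centred 500 bp to either side of the summits of members the G-box share was 3.63% and the PBE-box share 9.08%.

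The shares of the motifs by class had wide intervals in the small classes, and the classes were not tested against each other. Sites in non-coding genes had a G-box at 32 of 54 (59.3%, exact 95% interval 45.0 to 72.4) and either motif at 43 (79.6%, 66.5 to 89.4). The 5′ UTR sites had a G-box at 70 of 163 (42.9%, 35.2 to 50.9), a PBE-box at 49 (30.1%, 23.1 to 37.7) and neither at 63. Sites in 3′ UTRs had a PBE-box at 14 of 27 (51.9%, 31.9 to 71.3) and a G-box at 10 (37.0%, 19.4 to 57.6). In coding sequence a G-box was at 18 of 41 sites (43.9%, 28.5 to 60.3) and a PBE-box at 8 (19.5%, 8.82 to 34.9), and in introns each motif was at 6 of 18 (33.3%, 13.3 to 59.0). Nuclear DNA of the same class was counted in every non-overlapping tile of the length of a site, and a G-box was in 3.87% of 29075 tiles of 5′ UTR, 2.19% of 167116 tiles of coding sequence, 1.30% of 90437 intron tiles, 1.82% of 34041 3′ UTR tiles and 1.92% of 59312 tiles of non-coding genes. For the PBE-box the tile shares ran from 6.96% in 5′ UTRs to 10.2% in non-coding genes. Over all tiles inside genes the G-box share was 2.03%, against 2.75% of tiles outside. The PBE-box was in 8.90% and 10.7% of these tiles, and either motif in 10.7% and 13.1%. The lower motif shares of members than of outside sites therefore do not show a weaker link of PIF3 sites to the motifs inside genes. The PBE-box share of coding-sequence sites, with a lower bound of 8.82%, was the one nearest to its tile share of 8.29%. The base before CACGTG, read from both ends of each G-box, was C at 39.0% of 374 ends inside genes and 35.0% of 1118 ends outside, and G at 12.8% and 14.2%.

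**Figure D2:**
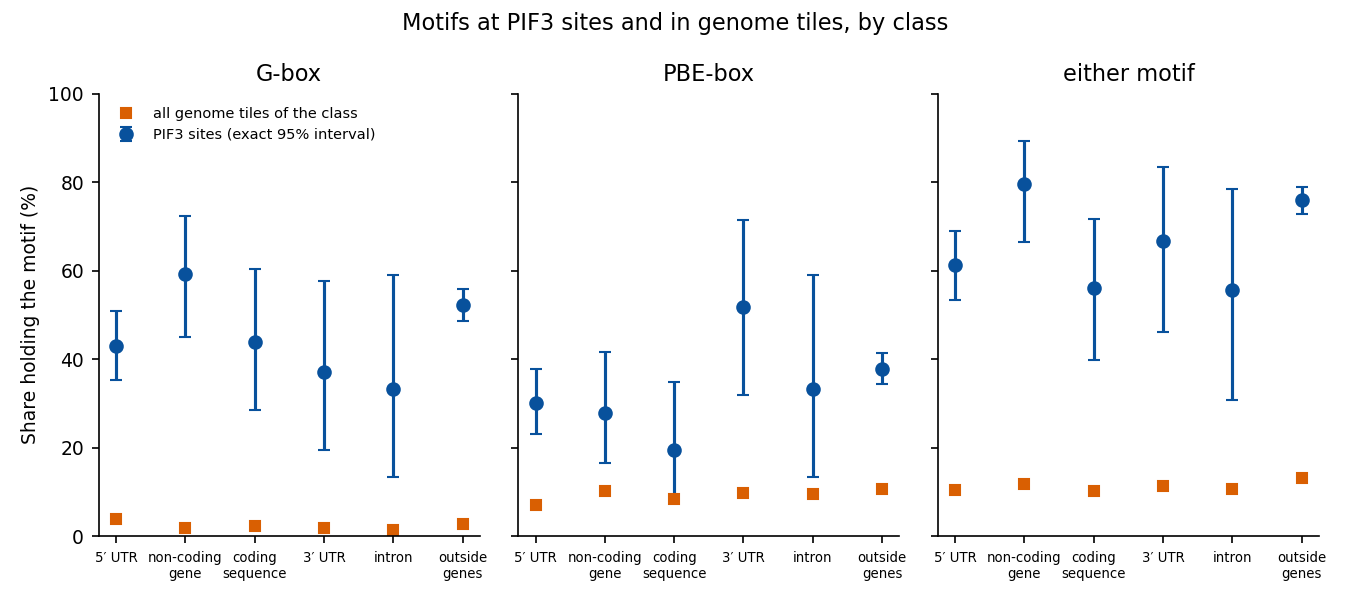
Share of sites in percent (y axis) with a G-box, a PBE-box or either, for each class of site and for sites outside genes (x axis). Circles are PIF3 sites with exact 95% intervals and squares are all genome tiles of the class and of the length of a site. Every circle lies above its square, and the interval of the PBE-box in coding sequence, from 8.82%, ends just above the square at 8.29%.

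The 5′ UTR sites lay near the gene start. Their median distance from the annotated start of the host was 102 bp, with 80 of 163 within 100 bp, 124 within 200 bp and 11 beyond 500 bp, up to 2561 bp. The mean summit lay in exon 1 for 158 of them and in a later exon for 5. A 5′ UTR begins at the start of its transcript, so these distances and exon counts follow in large part from the class. The same values over all 5′ UTR bases are not given here, nor is the share with a transcript start downstream. The median distance to the start codon, introns included, was 251 bp, and 17 summits lay within 100 bp of it. For 47 of the 163 sites, at least 1 coding transcript of the host began downstream of the summit, so that the same base lies upstream of that transcript. In the model with the longest coding sequence alone, 144 stayed in the 5′ UTR, 13 fell outside the transcript and 6 in an intron. Of the 100 sites with a motif, 92 had the nearest one wholly inside the host gene. A total of 15 sites also lay within 1 kb upstream of another protein-coding gene, in all 15 cases on the other strand, against 49 of all 303 members on either strand. On the strand of the host, such a neighbour would have to start inside the host or past its end.

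Among the 5′ UTR sites in all 4 lists, that of AT4G17420, which encodes a protein related to a bacterial RNA-binding attenuator protein, had the best mean rank. Its folds were 7.38, 11.5, 7.25 and 14.8 in replicates 1 to 4, and its summit lay 29 bp from the gene start with a G-box 8.5 bp away. Replicates 2 and 4 were the higher ones at this site. NAC089, a NAC-domain transcription factor, had folds of 7.85, 6.93, 5.69 and 9.78 with neither motif. At AT5G66580, a gene of unknown function, a pair of G-boxes and a PBE-box lay in the window, and the folds were 6.50, 6.42, 4.34 and 5.83. AT3G54510, whose product is annotated as an early-responsive-to-dehydration protein, had a pair of PBE-boxes and folds of 7.39, 6.21, 6.96 and 9.33. AT4G30410 is annotated as a DNA-binding transcription factor and has 2 PBE-boxes, with folds of 6.18, 5.99, 5.26 and 11.2 at a summit 15 bp inside the gene. Replicate 4 stood above the others there. Of the remaining leading sites, AT3G03870 (5.41 to 7.83), PMR5 (5.07 to 11.2), ALDH2C4, an aldehyde dehydrogenase (4.34 to 10.2), and AT3G15115 (6.20 to 10.0) each held 1 motif. DGD1, which makes the galactolipid digalactosyldiacylglycerol of plastid membranes, held none and had folds of 3.64, 5.89, 2.76 and 3.79, the lowest of the 10. WNK3, a kinase of the WNK family, lacked a peak in replicate 1 and had folds of 6.43, 7.70 and 14.8 in replicates 2 to 4, with a G-box 4.5 bp from the summit.

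Of the 18 hosts found in gene lists on light, hormones, growth and housekeeping, 12 had the site in the 5′ UTR (66.7%), near the share of 64.9% among all 251 members in protein-coding genes. Of 244 genes in 17 lists, chosen with earlier results of these data known, 18 hosted a site (7.38%), against 0.911% of all 27444 protein-coding genes. The Aux/IAA list, repressors of auxin response that are themselves induced by auxin, had 5 hosts of 28, namely IAA7, IAA13 and IAA16 in the 5′ UTR, IAA2 in coding sequence and IAA14 in a 3′ UTR. IAA13 had folds of 4.84, 4.16 and 10.2 in replicates 2 to 4 with neither motif, and its summit lay 5 bp inside the gene. IAA7 had 4.59 and 5.83 in replicates 3 and 4 with both motifs. IAA16 had 5.33 and 3.93 in replicates 1 and 2 with neither. The HD-Zip class II list, homeodomain factors of the shade response, had 2 hosts of 8. HAT2 (3.46, 2.72 and 4.19 in replicates 1, 3 and 4) and HAT3 (3.80 and 6.14 in replicates 3 and 4) held neither motif. HAT2 was below the median of members in each of its 3 lists, and HAT3 below it in replicate 3 and above it in replicate 4. The auxin synthesis and transport list had 3 hosts of 16. PIN4, an auxin efflux carrier, had 4.89 and 6.56 in replicates 1 and 4 with both motifs in the window. PID, the kinase PINOID that phosphorylates PIN proteins, had 2.79 and 3.69 in replicates 3 and 4 with a pair of G-boxes. PIN3 is in an intron and is described with that class. The abscisic acid list had 2 hosts of 17, TMAC2 (6.0, 6.42 and 7.59 in replicates 1, 2 and 4, with 3 G-boxes) and SNRK2.5, a kinase (5.77, 4.48 and 6.36 in the same replicates). EIN3, the transcription factor of ethylene response, had 4.81 and 10.2 in replicates 3 and 4 with a G-box 5.5 bp from the summit. PHYA, the photoreceptor phytochrome A, had 3.57 and 6.58 in these replicates with neither motif, 478 bp from the gene start and upstream of the start of 2 of its 6 coding transcripts. The 2 brassinosteroid lists had BAS1, BEE1 and BEE3, all with sites in coding sequence. The clock gene CHE, a TCP factor annotated as TCP11, had 4.74 and 4.92 in replicates 1 and 2 with a PBE-box. No member of the lists for gibberellin, cytokinin, B-box zinc finger, chlorophyll and photosystem, cell wall growth, PIF and related bHLH, TCP and RAV, or housekeeping was a host. The lists do not hold every gene of a family, and BBX27 and BBX8, which are B-box genes, and AT5G23280, a TCP gene, hosted 5′ UTR sites (named after their values were seen). Among the 250 protein-coding hosts, 34 had a product name with a word from a set for transcription factors, DNA-binding families and auxin-inducible Aux/IAA proteins (13.6%, exact 95% interval 9.61 to 18.5), against 6.24% of all protein-coding genes. The words find IAA2 and IAA14 and miss EIN3, BEE1, BEE3, IAA7, IAA13 and IAA16, whose product names hold none of them.

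Of the 41 sites in coding sequence, 17 lay in the first 120 coding bases and 13 in the last 120, 4 of these in both, and 15 in neither. The 26 at an end are 63.4% of the class, and these ends take up a mean of 48.7% of the coding sequence of the hosts. No test of this difference was made. The median coding length of the hosts was 723 bases, against 1047 over all protein-coding genes. A coding length of 360 bases or less was found at 14 of the 41 sites and in 11.1% of all protein-coding genes, and 9 of these 14 sites held a motif, compared with 14 of the 27 in longer frames. Coding transcripts that began downstream of the summit were annotated at 5 of the 41, among them IAA2, RHA2B and MYB10. The nearest motif lay wholly in coding sequence at 21 sites, where its first base was at codon position 1 at 6 sites, at position 2 at 12 and at position 3 at 3. The same counts over all such motifs in coding sequence are not given here, so these show no preference for a position.

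IAA2 had the best mean rank of this class. Its folds were 8.77, 9.04, 7.29 and 13.3 in replicates 1 to 4, and the summit lay at coding base 11 of 786 of its longer model, while 1 of its 2 coding transcripts began downstream. The PBE-box lay 10.5 bp from the summit. RHA2B, a RING-H2 protein, had folds of 6.11, 7.90, 8.72 and 15.7 at coding base 19 of 591, with a G-box 2.5 bp from the summit. MYB10, a MYB transcription factor, had 5.32, 7.65, 6.85 and 18.6 at coding base 18 of 720 and neither motif. Replicate 4 had the highest fold at all 3 of these sites.

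BEE1 and BEE3 are related bHLH factors induced by brassinosteroid, and both carried a site at the same place near the stop codon. The summit lay 58 coding bases from the end in BEE1 and 50 in BEE3, in exon 6 of 6 of a frame of 783 bases in each. BEE1 had folds of 7.78, 5.00, 6.22 and 10.6, and BEE3 had 9.0, 7.54, 8.10 and 13.1, so that the ranges overlap and BEE3 was the higher of the pair in 4 of 4 lists. Of the 26 bases printed above, 23 are identical in both genes, and the G-box starts at codon position 2 in both. No stretch of 36 bases, the read length, in the window of one gene came closer than 3 mismatches to one of the other, while the authors' alignment allowed up to 2. Only these windows were compared, and whether reads of one gene were placed in the other was not tested. BEE1 also had another reproducible site within 5 kb upstream of its start.

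AT1G20790, annotated as an F-box protein, had 5 PBE-boxes in its window and folds of 6.71, 5.92, 4.01 and 8.32 at coding base 1105 of 1308. AT5G61997, a frame of 120 bases, had 5.58, 7.14, 6.14 and 15.2 and a G-box 3.5 bp away. AT2G24625, a defensin-like gene, had 5.67, 5.11, 5.14 and 9.50. Coding-sequence sites with a motif and 3 lists lay in AT1G11970, TRM25, AT4G36170, AT3G25716, AT1G20875, AT2G31981 and AT2G16890. All 7 were absent from replicate 3, and their folds in the other lists ran from 3.68 to 8.92. TRM25 held 4 G-boxes and AT4G36170 and AT1G20875 held 3 each. The summits in AT1G20875 and AT2G31981 lay 98 and 56 bp upstream of the start of a gene on the other strand, for AT2G31981 the cystatin gene CYS2. BAS1, a cytochrome P450 that inactivates brassinosteroids, had 6.28 and 4.26 in replicates 1 and 4 with a pair of G-boxes at coding base 1056 of 1563. AT2G01300, annotated as a Mediator subunit and named here after its values were seen, had a coding-sequence site with a G-box in replicates 2 and 4 (5.44 and 7.89) and a 5′ UTR site with neither motif in replicates 2 and 3 (6.71 and 4.08).

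**Figure D3:**
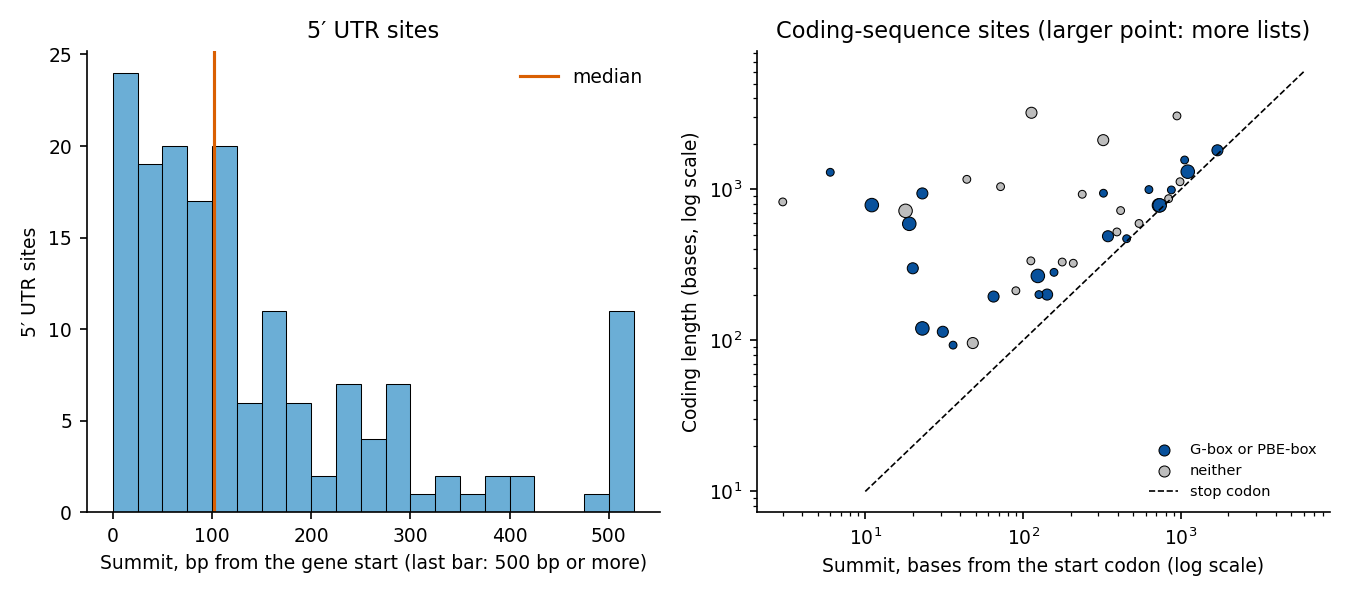
Left, number of 5′ UTR sites (y axis) by distance of the mean summit from the gene start in bp (x axis), with the median of 102 bp as a line. Right, coding length of the host in bases (y axis, log scale) against the place of the summit in the coding sequence in bases (x axis, log scale) for the 41 coding-sequence sites. Points near the dashed line lie at the stop codon, and 23 of the points are coloured as holding a motif.

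Peaks seen in a single list lay inside genes at a higher share than peaks of reproducible sites in each of the 4 lists, and in replicates 1 and 2 they lay most often in coding sequence. The share of peaks with their own summit inside a gene was 25.6%, 28.1%, 27.9% and 27.5% for peaks of reproducible sites and 63.7%, 67.3%, 40.2% and 35.1% for single-list peaks in replicates 1 to 4. The mean difference was -24.3 percentage points ± 16.7 (SD, n = 4, two-sided exact sign-flip permutation p = 0.125), with the same sign in 4 of 4 lists. With peaks at a p of 1e-10 or lower it was -10.4 (exact permutation p = 0.375). Coding sequence took 41.5%, 39.7%, 15.9% and 6.21% of single-list peaks, against 4.75%, 3.75%, 3.60% and 3.92% of peaks in reproducible sites. Most of the nuclear genome lies inside genes, with 379981 of 591719 tiles there and 167116 in coding sequence. Peaks of reproducible sites were below this genic share in each list. A high genic share of single-list peaks is thus no sign of a preference for genes, and neither share was tested against the genome. Single-list peaks in coding sequence held either motif at 18.2%, 18.8%, 23.1% and 21.5%, compared with 78.3%, 54.8%, 56.2% and 59.0% of those in reproducible sites. Their median folds were 3.30, 3.48, 2.62 and 4.03, against 4.94, 5.00, 4.55 and 5.85. Replicates 1 and 2 were each sequenced in 2 runs and replicates 3 and 4 in 1 run, and the part of the runs in this split was not tested.

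**Figure D4:**
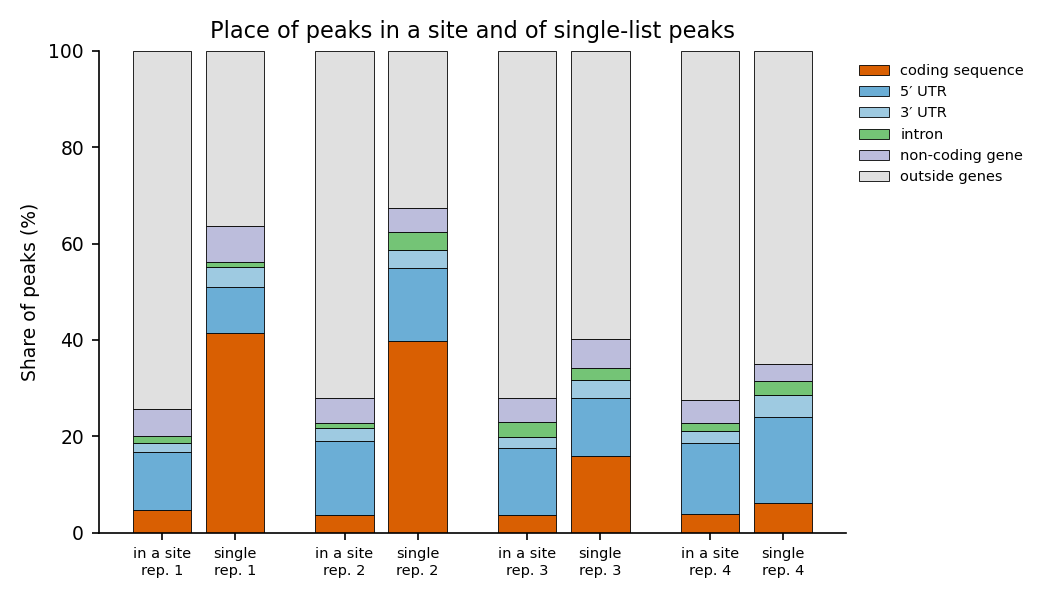
Share of peaks in percent (y axis) by place of the summit, for peaks of reproducible sites and for single-list peaks of each replicate (x axis). Coding sequence, at the foot of each bar, takes 41.5% and 39.7% of the single-list peaks of replicates 1 and 2 and between 3.60% and 4.75% of peaks in sites.

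The 18 intron sites lay in long introns. The introns had a median length of 1570 bp, from 235 to 9724 bp, against 99 bp over the introns of all longest models. A longer intron offers more bases for a summit, and no correction for length was made. Of the 18, 8 were in intron 1, 14 lay between coding exons and 4 in introns of a UTR. The median distance from the gene start was 1810 bp, from 362 to 7074 bp. AT5G14690, a gene of unknown function, had folds of 9.51, 7.67, 6.67 and 12.9 in an intron of its UTR, with a G-box 2.5 bp from the summit. AT1G35895 (4.94, 5.01, 3.64 and 5.64) held a PBE-box, and AT3G44610, a protein kinase gene (3.30, 3.62, 5.03 and 8.69), held both motifs. These 3 were the intron sites present in all 4 lists. Sites of 3 lists lay in ATCSLA09, which makes mannan backbones of the cell wall (8.75, 5.47 and 9.90 in replicates 1, 3 and 4), in AT3G16180 (6.09, 5.20 and 5.87 in replicates 2 to 4) and in TGA10, a bZIP factor (3.55, 4.10 and 13.1 in replicates 1, 3 and 4). PIN3, an auxin efflux carrier, had 4.34 and 5.14 in replicates 2 and 4 in intron 3 with neither motif, and 2 further sites lay within 5 kb upstream of its start. The genes of a pair of NADPH oxidases, RBOHF and RHD2, named here after their values were seen, each held an intron site in replicates 3 and 4 with 1 PBE-box (3.86 and 4.12, and 3.14 and 3.44).

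The 27 sites in 3′ UTRs lay a median of 211 bp before the gene end, from 1 to 921 bp. Of these, 9 lay within 1 kb upstream of the start of another protein-coding gene and 21 within 5 kb, 19 of the 21 on the strand of the host. Of all 303 members, 49 lay within 1 kb upstream of such a start and 227 within 5 kb. A neighbour on the other strand would have to start inside the host or upstream of it. AT3G06590, a bHLH gene, had folds of 8.78, 7.81, 6.37 and 10.1 with a PBE-box 2.5 bp from the summit, 1423 bp upstream of the galactokinase gene GALK. CYP71B3, a cytochrome P450 gene, had 6.73, 3.89, 6.43 and 9.61 with a G-box, 24 bp before its end and 671 bp upstream of its relative CYP71B23. These 2 were the 3′ UTR sites in all 4 lists. IAA14 had 6.72, 5.11 and 10.3 in replicates 1, 2 and 4 with a PBE-box, 44 bp before the gene end. AT2G34185 (7.75, 4.81 and 12.0 in replicates 2 to 4) and PTAC6, a plastid transcription protein (5.47, 5.49 and 6.27 in replicates 1, 2 and 4), held G-boxes, and AT1G26920 (6.21, 7.54 and 7.80 in the same replicates) held neither motif. In the models with the longest coding sequence alone, the sites of IAA14, PTAC6 and AT2G34185 fell beyond the end of the transcript, as did 5 of the 27 in all, and 2 fell in an intron.

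Of the 54 sites classed as non-coding, 40 lay in genes annotated as long non-coding RNA, 9 in miscellaneous RNA genes, 2 in other non-coding RNA genes and 1 in a transcribed pseudogene. The other 2 lay in non-coding transcripts of protein-coding genes, LBD22 and BRH1, named here after their values were seen. The 52 non-coding hosts had a median length of 387 bp, up to 3994 bp. Among the 52 sites, 17 lay within 1 kb upstream of a protein-coding gene, 36 within 3 kb and 44 within 5 kb, with the coding neighbour on the other strand from the host at 28 and on the same strand at 16. Of all 303 members, 49 lay within 1 kb upstream of a protein-coding gene other than the host, and 227 within 5 kb.

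AT5G01475 had the best mean rank of this class and folds of 9.23, 12.2, 8.42 and 14.7, with a G-box 38.5 bp from the summit. AT5G08745 had 8.98, 10.4, 8.27 and 13.3 with a G-box, AT1G09965 had 11.7, 7.11, 8.54 and 16.0 with both motifs, and AT3G03035 had 6.17, 7.41, 4.44 and 9.49 with a pair of G-boxes. The first 3 of these had no fold below 7.11 in any list. AT1G09965 lay 2975 bp upstream of RAP2.4, an AP2-type factor. AT5G06985 (6.05, 6.32, 4.11 and 9.92) lay 1465 bp upstream of HAT2 on the other strand, 1485 bp from the site in the 5′ UTR of HAT2, and HAT2 had 1 further reproducible site within 5 kb upstream of its start. AT3G09365 (7.23, 7.63, 4.47 and 8.55) held a pair of G-boxes and a PBE-box, and lay 3633 bp from the 5′ UTR site of HAT3. At both HD-Zip genes the site in the non-coding gene held a G-box and was in all 4 lists, while the site in the 5′ UTR held neither motif and was in 3 and 2 lists.

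Other reproducible sites were near a part of the members. No other site lay within 500 bp, 36 of the 303 had one within 2 kb and 65 within 5 kb. The same shares over all 1064 sites are not given here, so these counts do not show whether members cluster more than other sites. The host had another site within 5 kb upstream of its start at 48 members, 25 of them in the 5′ UTR class, 14 non-coding, 6 in coding sequence, 2 in 3′ UTRs and 1 in an intron. IAA2, BEE1, RHA2B, BAS1, HAT2, HAT3, SNRK2.5 and PIN3 were among these hosts.

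Across the 37 members in all 4 lists, replicate 4 gave the highest fold at 33 and replicate 3 the lowest at 22, and 32 of the 37 held a motif. The motif share among all 175 sites in all 4 lists is not given here, so this count is not a trait of members. Each list has its own scale, and folds are best read within a list.

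**Figure D5:**
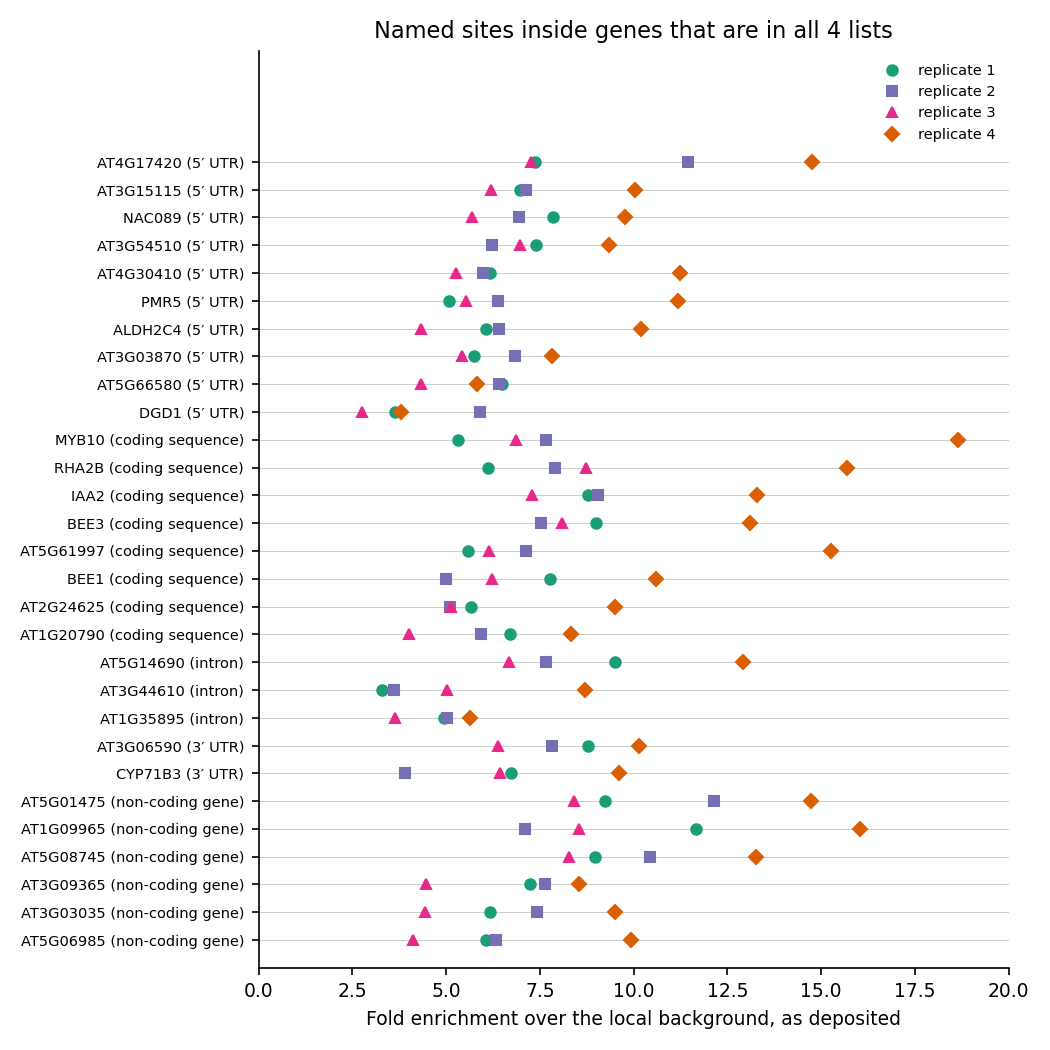
Deposited fold enrichment over the local background (x axis) in each of the 4 replicates for the named sites that are in all 4 lists (y axis, host gene and class). MYB10 in replicate 4 has the highest value, 18.6, and DGD1 in replicate 3 the lowest, 2.76.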

How the data were processed

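The authors made the peak lists from 36-nt reads with CASAVA 1.7.0, Bowtie 0.12.7 (TAIR9) and MACS 1.4.0rc2, at a p of 1e-05, with the WT library of a replicate as the control for P3M. The count of tags per peak is deposited by the authors as MACS gave it. The fold enrichment is the ratio to the local background computed by the authors, the score was deposited as -10 times the logarithm of the p-value, and each peak's rate of false discovery, in percent, is also the authors' MACS value. Immunoprecipitates were pooled, 4 to a library, and libraries were not pooled. No value was rescaled here.

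Sites, classes and motifs were found as described in the report. Genes and sequence came from RefSeq for TAIR10.1, with 37899 nuclear genes, and its coordinates were used for peaks on TAIR9. All peaks lay within its chromosomes, and motifs clustered at summits, but the TAIR9 annotation was not used here. Shares have exact (Clopper-Pearson) 95% intervals, which cover counting error only. Differences were taken within each list and tested by sign flips of the 4 differences, with Benjamini-Hochberg adjustment over 16. The replicates are separate biological samples per the labels.

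Named sites are those with the best mean rank of the score among sites in the most lists (up to 10 in the 5′ UTR class and 6 in each other), hosts in the gene lists, coding-sequence sites with a motif in at least 3 lists, and 8 host genes listed by name, and others are said to be named after their values were seen. Members and lists were chosen with earlier results of these data known. Of the listed symbols, 3 did not match the annotation and were left out. A product was counted as a transcription regulator by words in its RefSeq name, RING, CCHC and CCCH fingers left out. Alternatives changed the lists required, the peak p-value, the joining distance, the gene models, the class order and the motif distance. Python 3.11.15, numpy 2.4.6, scipy 1.17.1, pandas and matplotlib 3.10.9 were used, and the scripts were tested on simulated data.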

Additional observations from a re-analysis of the deposited data

Results flagged for a closer look

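In 4 of the 37 sites in all 4 lists, the fold of 1 list stood apart from the other 3 by Dixon's gap, a test that chance passes in about 1 of 20 groups. It was replicate 4 in each, with a fold of 12.2 in the non-coding gene AT2G04015, 9.50 in the coding sequence of AT2G24625, 11.24 in the 5′ UTR of AT4G30410 and 15.25 in the coding sequence of AT5G61997. None of the class medians and shares by list stood apart in this way.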

How the results depend on the processing

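Counts fell with stricter lists. With at least 3 lists, 114 sites were inside genes (25.6% of 446), with 57, 18, 8, 10 and 21 in the 5′ UTR, coding-sequence, intron, 3′ UTR and non-coding classes, and with peaks at a p of 1e-10 or lower 109, with 50, 17, 9, 10 and 23. With protein-coding genes only, the share was 23.6% and the non-coding class 2. With the whole window of a site in the gene, the number was 189 (17.8%) and the 5′ UTR class 83. Leaving out 1 replicate in turn gave between 138 and 266 sites (27.0% to 28.8%), 70 to 143 in the 5′ UTR, 21 to 36 in coding sequence, 8 to 18 in introns, 13 to 24 in 3′ UTRs and 26 to 48 in the non-coding class, the lowest each time without replicate 4. Without replicate 2 the number was 179, and without replicate 3 the intron class was 11. The PBE-box share minus outside reversed at the 5′ UTR class to 2.62 points with 3 lists and 7.26 at the lower p, and inside genes to 2.03 at the lower p. The score rank of the other genic classes minus outside reversed to -1.14 with 3 lists, and lay between -2.34 and 2.25 when 1 replicate was left out (-2.34 without replicate 3 and -1.36 without replicate 4). The other 13 differences kept their sign under the alternatives run, but several shrank. With at least 3 lists the fold of the other genic classes minus outside went from -0.37 to -0.0025, either motif inside genes from -9.87 to -4.99 and in the 5′ UTR class from -11.8 to -6.34. At the lower p the share of reproducible minus single-list peaks inside genes went from -24.3 to -10.4, and the 5′ UTR score rank from 9.79 to 3.22. Without replicate 2 the PBE-box difference inside genes was -1.95, and either motif in the 5′ UTR class -5.22. Replicate numbers are shared by P3M and WT, and the paired fit compares peaks within a list. With no replicate block, the share of peaks inside genes, -24.3 points, had an exact permutation p of 0.0286, and no other difference passed 0.05. That is the smallest p that an unpaired test of 4 values against 4 can give, and it is not adjusted over the 16 comparisons. It also drops the pairing by list, under which the exact sign-flip p was 0.125, so it is no evidence beyond the paired test. The cause of these changes was not tested. Depth per library is unknown, so that a missing peak in a list is no sign of absent binding.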
